A study of Mus musculus with 5375 samples.

Results

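The 41 genes described here encode proteins of the DNA synthesis (S) phase of the cell cycle. They were taken by name from a list of replication genes, with no threshold on a measured value, and all 41 were present among the 35351 genes of the count tables. In tumor cells (TCs) from the mouse lung, edgeR's quasi-likelihood test put 9 members lower in latent TCs on day 3.5 than in extravascular TCs on day 1.5 (22.0%, beside 4.97% of all genes) and 1 higher (2.44%, beside 3.6%). The member with the smallest p was Hells, which fell to 61.0 ± 5.16 from 162 ± 19.0 CPM (a gene's reads scaled to 1 M reads of the library; mean ± SD, n = 4 and 4 libraries). Leaving out 1 library gave 6 to 9 calls. With only the 2 latent libraries that held few immune marker reads, 4 members passed and the others called kept their signs. Fewer libraries and fewer immune reads cannot be told apart in that fit. The 1 higher, Tk1, had a fold change of -0.038 on the deposited log scale, and its exons overlap another gene. In the pool of proliferative TCs on day 3.5, 7 members were higher than in intravascular TCs (17.1%, beside 2.31% of all genes) and 1, again Hells, was lower (2.44%, beside 2.23%). The pool is 1 library whose spread was taken from the other groups, and leaving out 1 intravascular library gave 4 to 10 calls. Between latent TCs and the pool the fold change of all 41 was below 0, beside 43.5% of all genes, and the 1 pool is behind every value. No member passed there in edgeR, while DESeq2 and limma called some lower, at shares given below. In lung endothelial cells (ECs), most members were found in a small share of cells, and no member passed in edgeR between days. DESeq2 called 1, E2f8, higher on day 3.5 than on day 0 (2.5% of members tested, beside 1.17% of all genes). E2f8 had 12 reads in 5 cells on day 0, and 72.2% of its day 3.5 reads came from 1 cell.

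Before S phase, the proteins CDC6 and the MCM helicase are loaded onto origins of replication, a step called licensing, and CDC45 and the GINS complex then turn the helicase into its active form. Polymerases, the sliding clamp PCNA and nucleotide-making enzymes copy the DNA, while histone chaperones and chromatin factors rebuild chromatin behind the fork. Many of these genes are activated together by E2F transcription factors at the transition from G1 to S, so their mRNAs are widely read as a sign of cells that are entering or passing through S phase.

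The study followed 4T1, an established breast tumor cell line derived from the BALB/c strain, whose cells carried green fluorescent protein and a CellTrace dye diluted by division. They were injected into the tail vein of adult wild-type female BALB/c mice, and single TCs and lung ECs were sorted into plates and sequenced with a modified SMART-Seq2 protocol without molecular identifiers. TC groups were cultured cells before injection (day 0, 1 pool), intravascular and extravascular cells on day 1.5 (4 libraries each, from the same 4 mice), and latent cells (4 libraries) and proliferative cells on day 3.5. On day 1.5 an antibody to H-2Kd given into the blood stained the intravascular TCs, and on day 3.5 the latent gate took cells that kept the dye and the proliferative gate those that had diluted it. The study describes its gates as enriching these classes without giving pure fractions. The labels name 4 proliferative replicates, but the deposited annotation ties these cells to 1 mouse, the same as latent replicate 4, so they were treated as 1 pool. ECs, sorted as CD31+ cells without markers of blood, lymphatic and stromal cells, came from 4 uninjected mice (day 0) and from 3 mice each on day 1.5 and day 3.5. Latent TCs and ECs of day 3.5, and TCs and ECs of day 1.5, shared 3 mice each, and 2 of the day 0 mice were sorted with each later day. Each TC gate was sequenced in its own lane, and gate and lane cannot be told apart. Each library is the sum over the kept cells of 1 mouse or pool, and p-values measure the spread between these libraries.

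The libraries held 31.9 to 49.9 M estimated reads per mouse in TCs, 163 M in the proliferative pool, 92.1 M in the cultured pool and 75.6 to 129.5 M in ECs, from 1566 TCs and 2479 ECs. The 4 tumor epithelial markers Krt8, Krt18, Epcam and Krt7 summed to 2600 to 6214 CPM in TC libraries and to 1.93 to 17.5 CPM in ECs. The 6 endothelial markers, led by Cldn5 in ECs, summed to 6132 to 10549 CPM in ECs and to 8.49 to 31.8 CPM in TCs. Of the 7 immune markers, Lyz2 led in latent TCs: their sum was 245 CPM in latent replicate 1 and 154 in replicate 4 but 5.43 and 5.39 in replicates 2 and 3, against 2.71 to 13.1 CPM in the other TC libraries. Lyz2 itself passed in latent against extravascular TCs (adjusted p = 0.0226), where it was at 0 in every extravascular library. In the same comparison 5 of the 6 endothelial markers were above 0 (median 4.86) and 0 passed, and their sum was 22.7 and 31.8 CPM in latent replicates 1 and 4, 9.36 and 13.8 in replicates 2 and 3 and at most 13.9 in extravascular libraries. The part of these immune and endothelial reads in the results on latent TCs was not tested.

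The members lie on 17 chromosomes. The strand used in counting was not given in the sources used here, and exons of 10 members overlap another annotated gene (Cdc45, Gins2, Rfc2, Fen1, Tk1, Dscc1, Slbp, Ubr7, Ccne2 and E2f8), so their reads may include those of the neighbor. Pseudogenes named after Pcna, Tyms and Nasp could likewise share reads with the 3 genes.

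Promoter sequence is shown for members that changed because the list is best known for control by E2F. RefSeq promoter windows (mouse GRCm38.p6, 250 bases before to 50 after the start) were found for 31 of the 41 members. They were searched on both strands for the E2F-type letters TTTCCCGC, TTTCGCGC, TTTGCCGC and TTTGGCGC and, separately, for CCAAT. An E2F-type match stood in 12 of the 31 members (38.7%) and in 704 of 27025 genes of the table (2.60%). Of the 8 members with a sequence that were lower in latent than in extravascular TCs, 6 had a match: Mcm5 (chr8:75109332-75109391, plus strand), Cdc6 (chr11:98907987-98908046, plus), Dtl (chr1:191575545-191575604, minus), Pola1 (chrX:93632260-93632319, minus), Hells (chr19:38930902-38930961, plus) and Cdca7 (chr2:72476122-72476181, plus). Their windows of 60 bases read as follows, with the match in capitals.
Mcm5: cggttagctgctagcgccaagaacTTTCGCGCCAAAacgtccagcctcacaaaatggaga
Cdc6: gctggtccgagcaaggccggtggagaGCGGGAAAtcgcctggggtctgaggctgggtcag
Dtl: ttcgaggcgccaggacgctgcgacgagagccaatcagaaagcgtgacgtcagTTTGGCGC
Pola1: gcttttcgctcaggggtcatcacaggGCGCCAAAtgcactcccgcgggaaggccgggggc
Hells: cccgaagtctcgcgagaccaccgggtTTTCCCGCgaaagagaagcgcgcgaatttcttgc
Cdca7: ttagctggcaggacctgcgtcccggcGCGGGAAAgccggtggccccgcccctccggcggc

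In Mcm5, a match on each strand overlaps, which makes the capitals longer. The other 2 of the 8, Nasp and Slbp, had none. None of the 6 members with a sequence that were higher in the proliferative pool than in intravascular TCs had an E2F-type match (0 of 6: Cdc45, Pcna, Fen1, Rrm2, Chaf1b and Slbp), against 6 of 18 (33.3%) among members that belonged to neither set. Their 100 bases before the start are shown for Rrm2 (chr12:24708154-24708253, plus), Cdc45 (chr16:18811973-18812072, minus) and Pcna (chr2:132253181-132253280, minus), with the letters CCAAT or their reverse complement in capitals.
Rrm2: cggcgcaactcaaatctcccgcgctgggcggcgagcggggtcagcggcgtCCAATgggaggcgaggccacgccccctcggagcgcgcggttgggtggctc
Cdc45: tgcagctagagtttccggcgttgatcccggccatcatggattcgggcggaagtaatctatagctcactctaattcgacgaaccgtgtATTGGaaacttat
Pcna: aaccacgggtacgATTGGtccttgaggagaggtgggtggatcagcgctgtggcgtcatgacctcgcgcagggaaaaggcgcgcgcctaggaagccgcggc

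CCAAT stood in 21 of 31 members (67.7%) and in 41.1% of all genes of the table, with 5 of 8 (62.5%), 4 of 6 (66.7%) and 13 of 18 (72.2%) in the same 3 sets. These are descriptions of letters within the windows. A window without the letters says nothing of binding, and the sets are small and were formed from the calls below.

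The first question was whether replication genes differed between TCs still in the vessel and TCs that had left it on day 1.5. No member passed the test (0 of 41; 0.951% of 19249 genes tested passed, 0.416% higher and 0.535% lower), although 8 members had an unadjusted p under 0.05, all of them higher in extravascular TCs (17.6% of all genes had such a p). Fold changes were log2 values from edgeR's quasi-likelihood test with Benjamini-Hochberg adjustment over all genes. The median over the members was 0.14 beside -0.01 over all genes, and 26 of 41 were above 0. In 4 members every extravascular library was above every intravascular one (Slbp, Pcna, Chaf1b and Pola1; 5.29% of all genes), and in 0 members every one was below (3.13%; 8.42% of all genes did not overlap in either direction). DESeq2 called 5 members higher (Chaf1b, Pcna, Pola1, Rrm2 and Slbp; 12.2%, beside 2.71% of all genes given a p). In contrast, limma on the deposited log values called 4 lower (Atad2, Gins2, Nasp and Pold3; 9.76%, beside 14.7% of all genes), with median -0.14 beside -0.16 over all genes. Without extravascular replicate 1, 2 members passed (Fen1 and Rrm2).

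Slbp, whose product binds the stem-loop of histone mRNAs, had the smallest p: it was at 61.8, 67.1, 61.3 and 66.5 CPM in the intravascular and at 101, 76.1, 98.5 and 89.4 CPM in the extravascular libraries (0.43 ± 0.11 SE, adjusted p = 0.0863). The groups did not overlap, but the difference missed the threshold. Rrm2, the regulated subunit of ribonucleotide reductase, was at 26.5, 51.7, 36.6 and 32.2 CPM in intravascular and at 45.6, 68.5, 63.3 and 102 CPM in extravascular TCs (0.84 ± 0.24, adjusted p = 0.101). Here 1 extravascular library lay within the intravascular range. Pcna, the sliding clamp, was at 155, 197, 168 and 159 CPM and at 211, 221, 235 and 293 CPM (0.42 ± 0.12, adjusted p = 0.102), again with all extravascular libraries on top.

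The members chosen to stand for the other roles were close between the gates. Mcm2, a helicase subunit, was at 48.8, 55.0, 40.3 and 43.2 CPM in intravascular and 36.4, 45.1, 37.9 and 53.5 CPM in extravascular TCs (-0.19 ± 0.18, adjusted p = 0.628). Mcm5, another subunit, was at 94.6, 68.1, 87.6 and 96.8 CPM and at 109, 103, 111 and 94.7 CPM (0.19 ± 0.13, adjusted p = 0.476). Tyms, thymidylate synthase, was at 173, 196, 199 and 175 CPM and at 201, 168, 158 and 199 CPM (-0.11 ± 0.12, adjusted p = 0.693). All 3 pairs of groups overlapped. Cyclin E2 (Ccne2), which drives entry into S phase, was at 7.22, 13.001, 7.29 and 10.8 CPM and at 14.8, 12.4, 9.31 and 9.74 CPM (0.20 ± 0.27, adjusted p = 0.761). E2f8, a repressor within the E2F family, was at 19.5, 29.7, 22.0 and 32.9 CPM and at 32.8, 38.5, 24.97 and 24.1 CPM (0.14 ± 0.23, adjusted p = 0.809). These groups overlapped as well.

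**Figure D1:**
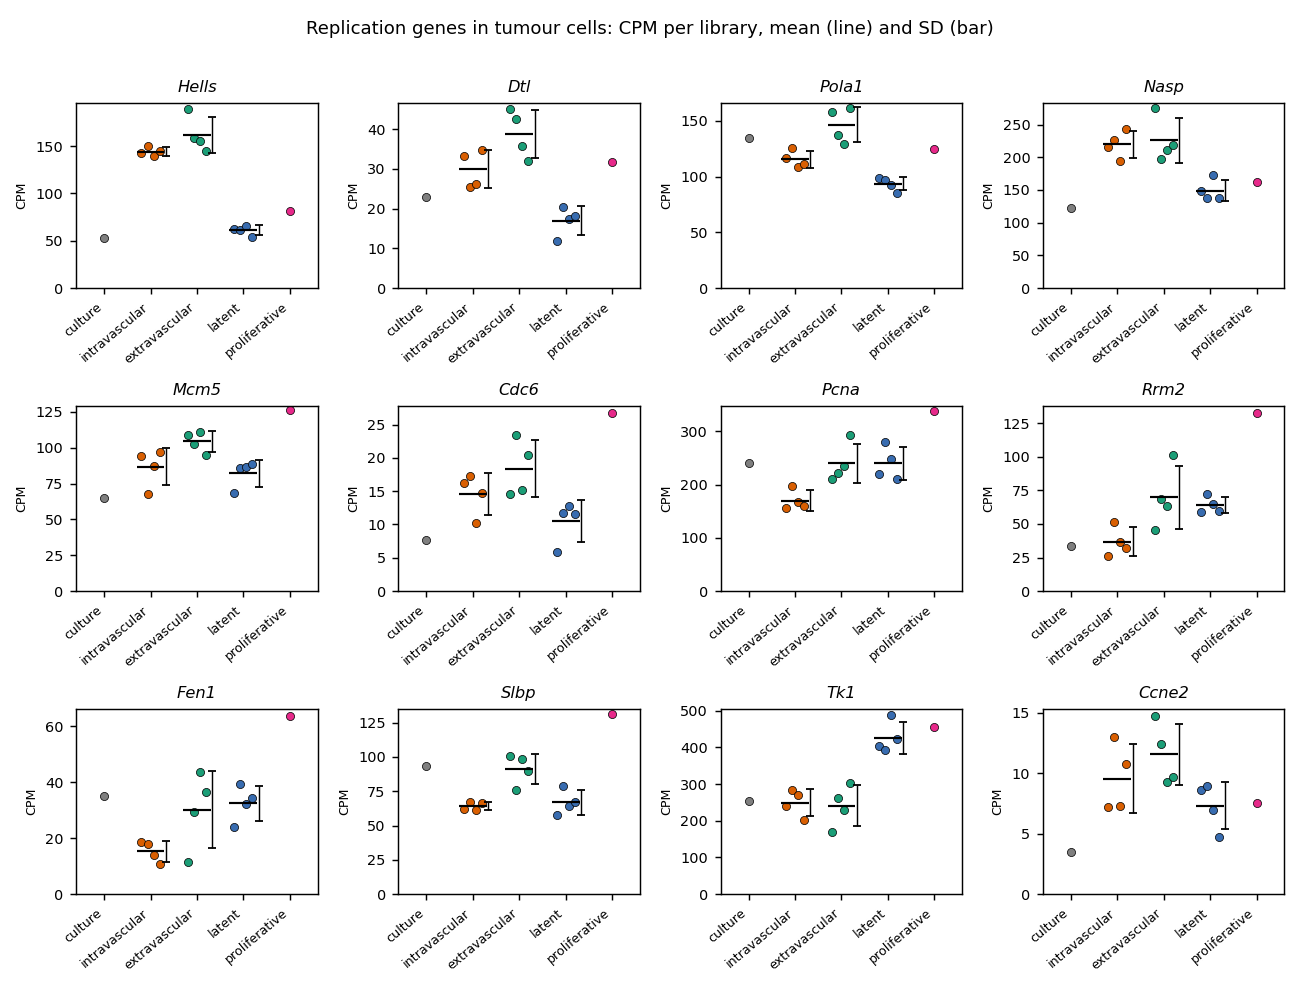
Level of 12 replication genes in TCs, in CPM on a linear axis from 0, with 1 point per library, the mean as a line and the SD as a bar beside it (cultured and proliferative cells are 1 pool each and have no bar). Hells lay between 139 and 189 CPM in the 8 libraries of day 1.5 and between 53.9 and 66.1 CPM in the 4 latent libraries, whereas Pcna, Rrm2, Fen1 and Slbp were highest in the proliferative pool.

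The second comparison set latent TCs of day 3.5 beside extravascular TCs of day 1.5, which came from other mice. Of the 41 members, 9 fell (22.0%; 4.97% of all genes tested fell) and 1 rose (2.44%; 3.6% of all genes rose, and 8.57% changed either way). The median over members was -0.32 beside 0.03 over all genes, and 31 of 41 were below 0. An unadjusted p under 0.05 was seen for 23 members (56.1% against 23.4% of all genes). Latent libraries lay wholly below the extravascular ones for 9 members (22.0%; 6.24% of all genes) and wholly above them for 3, Tk1, Gins2 and Rfc2 (7.32%; 10.4%). Exons of these 3 overlap another gene, whose part in their reads was not tested. Levels in CPM are plain, while fold changes also carry the library scaling, which moved each fold change of this comparison down by 0.14 on the log2 scale. In sums over cells, fewer cells expressing a gene and less RNA per cell cannot be told apart, and shares of cells are therefore given beside the levels.

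Of the chromatin and histone genes, 4 of 10 fell. Hells, a remodeler needed for DNA methylation, was at 189, 159, 155 and 145 CPM in extravascular and at 62.9, 61.3, 66.1 and 53.9 CPM in latent TCs (-1.55 ± 0.11, adjusted p = 8.36e-06). The groups lay far apart. Hells was also found in fewer cells: after each cell was thinned to 100000 reads it was detected in 81.7%, 82.1%, 85.3% and 81.8% of extravascular and in 69.1%, 59.8%, 67.9% and 65.4% of latent TCs.

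Cdca7, whose product recruits the Hells protein to chromatin, was at 32.0, 24.9, 27.9 and 23.2 CPM and then at 16.1, 14.5, 18.6 and 16.7 CPM (-0.84 ± 0.17, adjusted p = 0.00715). The groups did not overlap. Nasp, a histone chaperone, fell from 275, 197, 211 and 219 CPM to 149, 137, 172 and 138 CPM (-0.73 ± 0.12, adjusted p = 0.00165), although it was still detected in 87.2% to 95.6% of latent TCs. Slbp fell from the extravascular values above to 57.4, 78.9, 64.3 and 66.9 CPM (-0.59 ± 0.11, adjusted p = 0.00618), with 1 latent library above the lowest extravascular one. Of the 6 members of this role that did not pass, Wdr76 was at 5.25 ± 0.723 against 8.82 ± 1.03 CPM without overlap (adjusted p = 0.0563), Casp8ap2, needed for histone mRNA processing, at 24.0 ± 5.85 against 40.3 ± 14.8 CPM (adjusted p = 0.056), and the maintenance methylation factor Uhrf1 at 23.2 ± 2.05 against 24.9 ± 4.23 CPM (adjusted p = 0.419).

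Licensing and helicase genes fell in 4 of 9. Dtl, the receptor of a ubiquitin ligase that destroys the licensing factor CDT1, went from 45.0, 42.6, 35.7 and 32.1 CPM to 11.8, 20.4, 17.4 and 18.1 CPM (-1.34 ± 0.19, adjusted p = 0.000714). Its share of thinned cells was 40.8%, 56.4%, 41.2% and 58.4% in extravascular and 23.5%, 36.6%, 35.8% and 35.9% in latent TCs, without overlap. Cdc6, the helicase loader, went from 14.5, 23.4, 15.2 and 20.4 CPM to 5.83, 11.7, 12.7 and 11.6 CPM (-0.96 ± 0.27, adjusted p = 0.0438). The latent values all lay below the extravascular ones.

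Mcm4 went from 27.2, 54.4, 44.0 and 47.4 CPM to 25.9, 29.6, 22.4 and 26.1 CPM (-0.88 ± 0.22, adjusted p = 0.0261), with an overlap made by extravascular replicate 1. Mcm5 went from the values above to 68.3, 85.8, 86.7 and 88.6 CPM (-0.48 ± 0.13, adjusted p = 0.0367), without overlap. Mcm2, at 26.9, 32.2, 35.4 and 41.99 CPM in latent TCs, did not pass (-0.48 ± 0.18, adjusted p = 0.129), nor did Mcm6 (-0.24 ± 0.17, adjusted p = 0.422). Cdc45 and Gins2, whose products activate the helicase, had positive fold changes without passing the test. Cdc45 was at 71.8 ± 19.7 against 45.9 ± 11.6 CPM (adjusted p = 0.194). Its share of cells was 64.7% to 74.4% in latent and 47.9% to 55.9% in extravascular TCs. Gins2 was at 156 ± 14.6 against 103 ± 18.4 CPM (adjusted p = 0.115). Exons of both overlap another gene, whose part in these reads was not tested.

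Among the 7 polymerase, clamp and fork genes, only Pola1 passed. Pola1, the catalytic subunit of the polymerase that starts each strand, went from 158, 137, 129 and 161 CPM to 98.6, 97.1, 92.8 and 85.4 CPM (-0.79 ± 0.10, adjusted p = 0.000312). The latent libraries all lay below the extravascular ones. Its partner Prim1, the primase subunit that makes the RNA primer, was at 67.3 ± 6.53 against 68.2 ± 9.48 CPM (adjusted p = 0.619). Pcna was at 221, 279, 248 and 211 CPM in latent TCs (-0.14 ± 0.12, adjusted p = 0.511), overlapping the extravascular range. The other 4 members, Rfc2, Pold3, Fen1 and Rpa2, had fold changes of -0.04 to 0.26.

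In nucleotide supply, Tk1 was the member that rose. Thymidine kinase (Tk1), which salvages thymidine, was at 169, 263, 230 and 302 CPM in extravascular and at 404, 392, 489 and 422 CPM in latent TCs (0.69 ± 0.17, adjusted p = 0.0231). Every latent library was above every extravascular one, though exons of Tk1 overlap another gene. The share of cells with Tk1 was 80.9% to 90.9% in extravascular and 82.9% to 87.7% in latent TCs, which overlapped. On the deposited log scale, averaged over cells, the change of Tk1 was -0.038 and not called. Rrm2 was at 59.0, 72.7, 64.8 and 59.9 CPM in latent TCs (-0.26 ± 0.24, adjusted p = 0.549) and Tyms at 221, 180, 237 and 226 CPM (0.12 ± 0.12, adjusted p = 0.617). Both overlapped the extravascular range.

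None of the 9 fork protection and repair genes passed, and 8 of the 9 were below 0. The nearest was Clspn, a checkpoint adaptor at the fork, at 35.9 ± 8.17 against 46.9 ± 4.51 CPM (-0.53 ± 0.17, adjusted p = 0.08). Neither regulator passed: Ccne2 was at 8.65, 8.96, 6.97 and 4.75 CPM in latent TCs (-0.80 ± 0.27, adjusted p = 0.0941), wholly below the extravascular libraries, and E2f8 at 20.3, 18.7, 29.2 and 22.5 CPM (-0.55 ± 0.23, adjusted p = 0.165), with overlap. Leaving out 1 library at a time left 6 to 9 calls. Hells, Pola1, Dtl, Nasp, Slbp and Cdca7 passed each time, while the other 4 did not. Cdc6 (adjusted p up to 0.11) and Mcm4 (up to 0.0742) passed only in the fit without extravascular replicate 1, and Mcm5 (up to 0.106) only without extravascular or latent replicate 4. Tk1 (up to 0.0628) failed without extravascular replicate 3, latent replicate 3 or latent replicate 4. The fewest calls, 6, came without extravascular replicate 3. With latent replicates 2 and 3 alone, which held few immune reads, 4 members passed (Hells, Pola1, Dtl and Nasp), with a median of -0.37 over members. In that fit the other 6 kept their signs but did not pass: Slbp was at -0.53 (adjusted p = 0.0744), Cdca7 at -0.88 (0.0657), Mcm4 at -0.92 (0.143), Mcm5 at -0.46 (0.173), Cdc6 at -0.77 (0.201) and Tk1 at 0.69 (0.115).

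**Figure D2:**
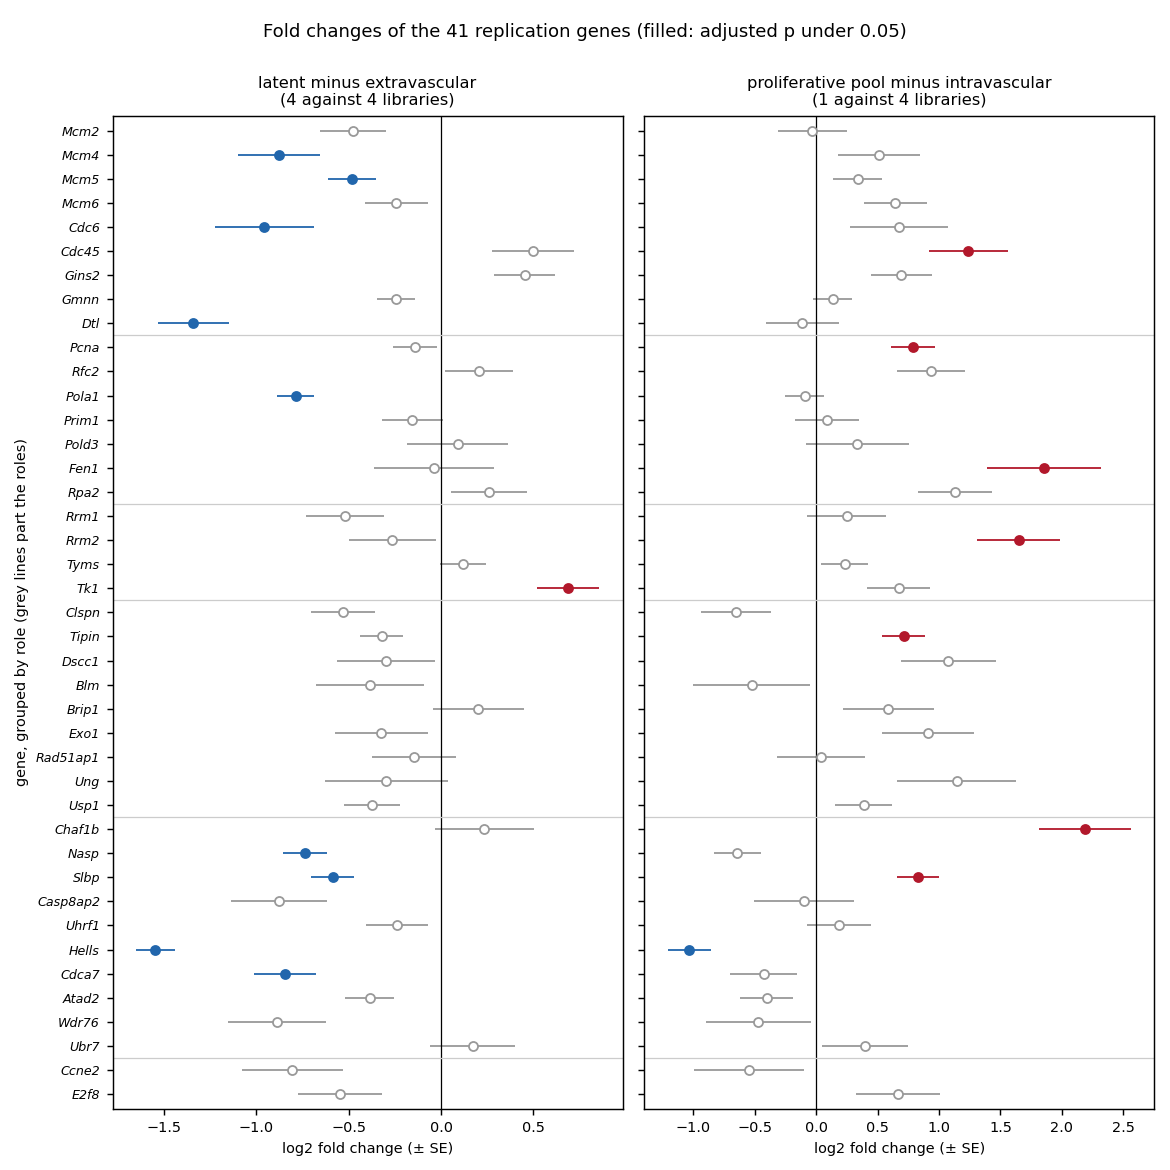
Fold changes of all 41 members (log2, points with SE bars) between latent and extravascular TCs (left) and between the proliferative pool and intravascular TCs (right), grouped by role. Filled points passed at an adjusted p under 0.05: 9 lower and Tk1 higher on the left, 7 higher and Hells lower on the right, where the pool is 1 library and its spread was taken from the other groups.

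The third comparison set the proliferative pool of day 3.5 against intravascular TCs. Since the pool is 1 library, the test assumes that it varies like the other groups, and an exact permutation test of 4 libraries against 1 could not go below p = 0.2. In this comparison 7 members were higher (17.1%; 2.31% of all genes) and 1 was lower (2.44%; 2.23%). The median over members was 0.39 beside -0.16 over all genes. The pool was above all 4 intravascular libraries for 27 members (65.9%; 32.3% of all genes) and below them for Hells, Nasp, Clspn and Atad2 (9.76%; 17.6%). Library scaling moved each fold change here down by 0.20.

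The higher members were spread over the roles. Chaf1b, a subunit of the chaperone CAF-1 that places histones behind the fork, was at 63.4 CPM in the pool and at 13.4, 11.2, 11.8 and 12.0 CPM in intravascular TCs (2.19 ± 0.38, adjusted p = 0.00773). Its share of thinned cells was 60.3% in the pool and 28.6% to 38.0% in the intravascular libraries. Rrm2 was at 133 CPM, against a highest intravascular value of 51.7 (1.65 ± 0.34, adjusted p = 0.0171). Slbp was at 131 CPM (0.83 ± 0.17, adjusted p = 0.0171), above all 4 intravascular values given above.

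Fen1, the nuclease that trims Okazaki fragments, was at 63.5 CPM in the pool and at 18.6, 17.9, 13.8 and 10.6 CPM in intravascular TCs (1.86 ± 0.46, adjusted p = 0.0395). Cdc45 was at 84.5 CPM in the pool and at 22.9, 38.9, 29.2 and 33.6 CPM (1.24 ± 0.32, adjusted p = 0.048). Pcna was at 338 CPM in the pool (0.79 ± 0.18, adjusted p = 0.0267), and Tipin, part of the fork protection complex, at 182 against 96.4 ± 9.71 CPM (0.71 ± 0.18, adjusted p = 0.0386). For all 4 the pool lay above every intravascular library. The clamp loader subunit Rfc2 (0.93 ± 0.28, adjusted p = 0.0791) and the single-strand binding protein gene Rpa2 (1.13 ± 0.30, adjusted p = 0.0512) lay above the intravascular range without passing.

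Hells went the other way, at 81.1 CPM in the pool and 143, 151, 139 and 145 CPM in intravascular TCs (-1.03 ± 0.17, adjusted p = 0.00733), yet it was detected in 82.1% of thinned cells of the pool, beside 82.2% to 86.1% in the intravascular libraries. Of the licensing and helicase genes other than Cdc45, none passed, but the pool lay above every intravascular library for Mcm4, Mcm5, Mcm6, Cdc6, Gins2 and Gmnn. Mcm6 was at 84.2 against a mean of 46.9 CPM (adjusted p = 0.218), the loader gene Cdc6 at 26.8 against 14.6 CPM (adjusted p = 0.472) and Mcm5 at 126 CPM (0.34 ± 0.20, adjusted p = 0.471). Mcm2, at 52.6 CPM in the pool (-0.03 ± 0.28, adjusted p = 0.983), lay within the intravascular range. Of the remaining representatives, Tyms was at 251 CPM (0.23 ± 0.19, adjusted p = 0.629), Ccne2 at 7.52 CPM (-0.55 ± 0.44, adjusted p = 0.622) and E2f8 at 47.4 CPM (0.67 ± 0.34, adjusted p = 0.382). Ccne2 lay within the intravascular range and the other 2 above it. Leaving out 1 intravascular library left 4 calls without replicate 1 or 4 (Cdc45, Fen1, Pcna and Tipin were lost), 5 without replicate 3 (Cdc45, Fen1 and Tipin) and 10 without replicate 2 (Fen1). Chaf1b, Hells, Rrm2 and Slbp passed in all of these fits. DESeq2 kept all of edgeR's calls, whereas limma on the deposited log values did not keep Hells, Rrm2, Slbp and Tipin.

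Latent TCs and the proliferative pool, both of day 3.5, were compared last. The dye gate, and not gene expression, made these groups. No member passed (0 of 41, and 0.0% of all genes), whereas DESeq2 called 5 lower in latent TCs (Dtl, Gmnn, Mcm6, Slbp and Tipin; 12.2%, beside 0.233% of all genes) and limma 9 (22.0%, beside 0.691%). The fold change was below 0 for all 41 members (43.5% of all genes), with median -0.49 beside 0.08 over all genes. An unadjusted p under 0.05 was seen for 19 members (46.3%; 5.08% of all genes), and 32 members were higher in the pool than in each of the 4 latent libraries (78.0%; 21.2%, or 40.4% in either direction). With latent replicates 2 and 3 alone, 0 members passed and the median was -0.57. The 1 pool is behind all of these values, and they share its error.

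The smallest p belonged to Slbp, at 131 CPM in the pool (-0.99 ± 0.17, adjusted p = 0.371), then Tipin, at 98.9, 98.3, 117 and 100 CPM in latent TCs against 182 (-0.82 ± 0.18, adjusted p = 0.65), and Mcm6, at 34.9, 48.1, 45.3 and 48.1 CPM against 84.2 (-0.95 ± 0.25, adjusted p = 0.674). In each the pool lay above all latent libraries. Of the representatives, Rrm2 (-1.07 ± 0.35) and E2f8 (-1.07 ± 0.33) differed most, then Mcm2 (-0.64 ± 0.27), Mcm5 (-0.63 ± 0.20) and Pcna (-0.52 ± 0.18). Tyms (-0.23 ± 0.19) and Ccne2 (-0.06 ± 0.43) were near 0. Tk1, the gene that rose in latent TCs, was at 456 CPM in the pool, within the latent range of 392 to 489 (-0.11 ± 0.26).

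Replication genes outside the list were read next. Of 54 further replication genes, 0 passed between extravascular and intravascular TCs, 10 fell and 2 rose in latent against extravascular TCs (4.97% and 3.6% of all genes), and 2 were higher (Rfc5 and Asf1b) and 1 lower (Pold4) in the pool against intravascular TCs (2.31% and 2.23% of all genes). Those that fell in latent TCs were the origin recognition genes Orc2 and Orc6, the initiation factors Mtbp and Topbp1, Pola2, Rfc1, Lig1, Wdhd1, Timeless and Dnmt1, and those that rose were Gins4 and Rnaseh2a. Pola2, which encodes the partner of the Pola1 protein, had the smallest p, at 72.1 ± 5.91 in latent and 196 ± 44.4 CPM in extravascular TCs (-1.58 ± 0.14, adjusted p = 3.13e-05). Gins4 encodes a subunit of the same GINS complex as Gins2.

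Among 9 genes of the E2F family, Tfdp2, a partner of E2F proteins, was lower in extravascular than in intravascular TCs (-1.54 ± 0.32, adjusted p = 0.0443), 0 passed in latent against extravascular TCs, and E2f4 (1.79 ± 0.39, adjusted p = 0.0237) and Tfdp1 were higher in the pool. Of 10 genes of G2 and mitosis, Cdk1 passed in latent against extravascular TCs, at 452 ± 46.3 against 224 ± 31.6 CPM (0.87 ± 0.18, adjusted p = 0.00972), in the direction of Tk1, and no other passed in any TC comparison. The sum of all 41 members was 2588 to 2882 CPM in latent, 2718 to 3077 in extravascular, 2346 to 2710 in intravascular TCs and 3699.6 in the pool. The sum of the 10 genes of G2 and mitosis was 1143 to 1362 CPM in latent, 772 to 1013 in extravascular, 672 to 921 in intravascular TCs and 1246 in the pool. In this sum the latent libraries lay wholly above both groups of day 1.5, and on both sides of the pool. Against extravascular TCs, 7 of the 10 genes were above 0 and 3 below, with a median fold change of 0.12, and Cdk1 alone made up most of the difference in the sum.

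Counting members per cell showed how they were spread. At 100000 reads per cell, a median of 24 members was detected in intravascular, 22 in extravascular and 22 in latent TCs, 26 in the pool and 22 in cultured TCs, where the unthinned medians were 28, 26, 27, 32 and 25. Cells with at most 10 members made up 6.33% to 8.22% of each intravascular, 10.4% to 16.9% of each extravascular and 13.6% to 20.7% of each latent library, and 5.56% of the pool and 9.32% of cultured TCs. At least 30 members were found in 23.1% to 25% of each latent library and in 35.9% of the pool. The share was 15.6% to 25.3% in intravascular and 14.1% to 27.3% in extravascular libraries. The study called cells bona fide latent only if they kept the dye and scored as not cycling, a selection not made here. The distribution of latent TCs had a low peak at 9 to 11 members (11.7% of cells), a dip at 12 to 14 (5.18%) and a high peak at 21 to 23 (14.6%). Before thinning, latent TCs with at most 10 members had a median of 408200 reads and those with at least 30 a median of 596133, so depth also moved with the count. In latent replicates 2 and 3 alone the median was 22 members, 17.2% of cells had at most 10 and 23.3% at least 30, and the bins at 9 to 11, 12 to 14 and 21 to 23 held 14.1%, 4.91% and 13.5%.

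**Figure D3:**
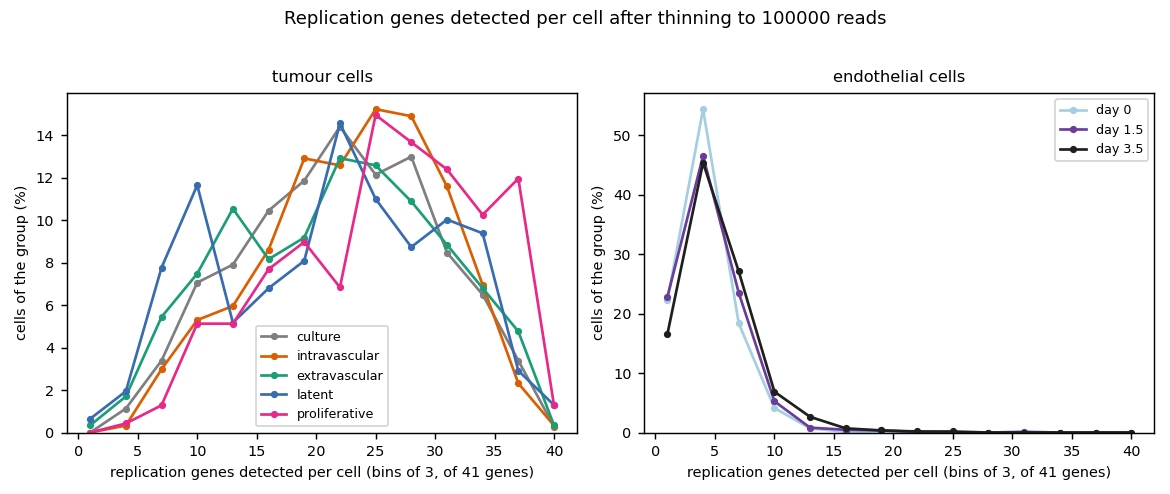
Share of cells (%) by the number of replication genes detected at 100000 reads per cell, in bins of 3 genes, for TCs (left) and ECs (right, with its own axis). Latent TCs had peaks at 9 to 11 and at 21 to 23 members, the pool held the most cells with 30 or more, and ECs were gathered at 3 to 5 members.

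Which members rose and fell together within cells also differed by gene. The median rank correlation over the 820 pairs of members, across thinned cells of a group, was 0.20 in cultured, 0.18 in intravascular, 0.22 in extravascular and 0.27 in latent TCs and 0.29 in the pool. The pair with the highest value was Tyms and Tk1, both of thymidine supply, in cultured (0.62), intravascular (0.62) and latent TCs (0.73), and Pcna and Rpa2, both at the fork, in extravascular TCs (0.57) and the pool (0.66). The number of members detected rose with the number of G2 and mitosis genes detected in cultured (0.42), latent (0.39) and extravascular TCs (0.33), and had values of 0.12 in the pool and 0.10 in intravascular TCs (Spearman's rho across cells). Between the summed CPM of both lists rho was 0.44, 0.43 and 0.11 in the first 3 groups and 0.12 and 0.03 in the other 2. In latent replicates 2 and 3 alone the median over pairs was 0.28, rho was 0.40 for members detected and 0.44 for summed CPM, and the highest pair was Gins2 and Tk1 (0.70). Cells of 1 library share their preparation and all share their depth limits, so these are descriptions.

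Cultured TCs were 1 pool of day 0. The culture lay below all 13 in vivo libraries for 10 members (Tyms, Mcm2, Mcm5, Mcm6, Dscc1, Casp8ap2, Nasp, Hells, Ccne2 and E2f8; 24.4%, beside 9.31% of all genes) and above all 13 for 0 (7.15% of all genes). Hells was at 53.3 CPM in culture, E2f8 at 8.77 and Ccne2 at 3.45. It lay above all 4 intravascular libraries for 11 members, such as Chaf1b at 36.7, Fen1 at 35.1 and Rfc2 at 155 CPM (26.8%; 27.6% of all genes), and below them for 16 (39.0%; 21.6%). No test was made on 1 pool.

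In ECs, the members were detected in fewer cells than in TCs. Their summed level was 809 to 1059 CPM in EC libraries, beside 2346 to 3699.6 CPM in TC libraries. Over the members, the median share of cells with a count above 0 was 8.58% on day 0, 10.6% on day 1.5 and 11.6% on day 3.5, against 59.9% to 78.1% in the in vivo TC groups. Median depth was 323654 to 350532 reads per EC and 527627 to 718192 per in vivo TC. At 100000 reads per cell the shares were 6.08%, 7.13% and 7.75% in ECs and 49.7% to 64.1% in in vivo TCs. Cdc6 and Rrm2 were the rarest members on day 0, each in 0.358% of ECs, and Nasp the most common, with 52.7%.

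**Figure D4:**
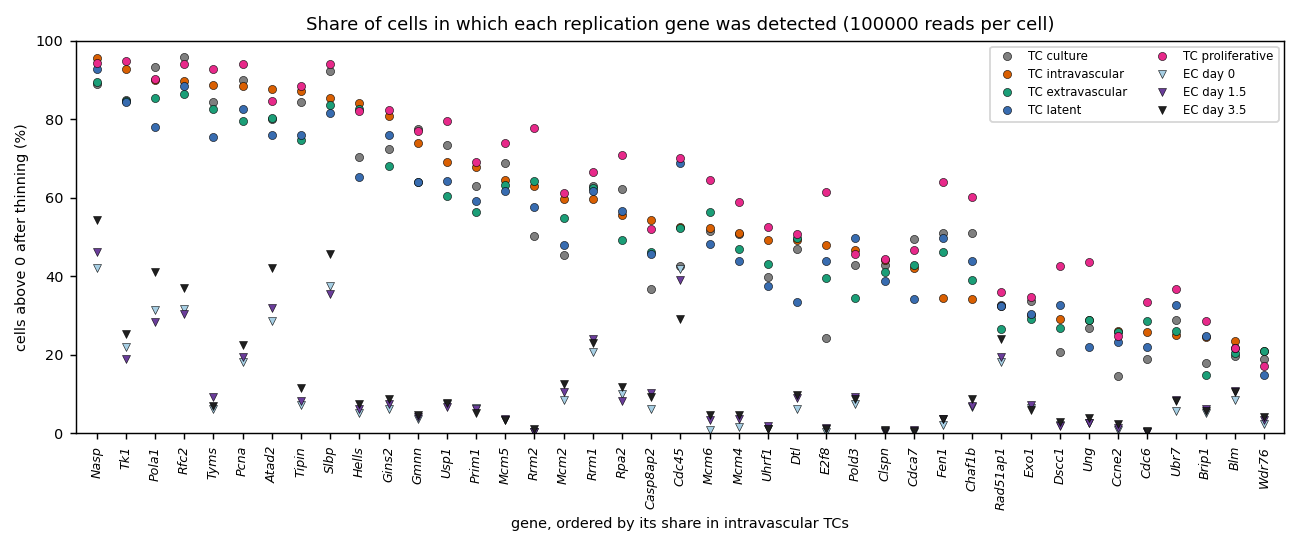
Share of cells (%) in which each of the 41 members was detected at 100000 reads per cell, in 5 TC groups (circles) and on 3 EC days (triangles), with genes ordered by their share in intravascular TCs. For all 41 members every TC group lay above every EC day, and Nasp, Slbp, Cdc45, Pola1, Rfc2 and Atad2 had the highest EC shares.

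A gene's reads in ECs came from few cells. Over members, the median share of a member's reads that came from its single strongest cell was 21.9% on day 0, 19.5% on day 1.5 and 19.7% on day 3.5. At 100000 reads, at least 20 members were detected in 0 of 724 ECs on day 0, in 3 of 855 on day 1.5 and in 3 of 568 on day 3.5, and 0 of 724 allows a share of up to 0.414% (counting error only). At least 10 members were found in 2.90%, 4.68% and 7.75% of ECs. By library the share was 1.46%, 2.5%, 5.26% and 2.72% on day 0, 3.79%, 4.26% and 5.86% on day 1.5 and 4.74%, 9.64% and 9.42% on day 3.5. Day 0 replicate 3 lay above 2 libraries of day 1.5 and 1 of day 3.5, so the days overlapped.

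No member passed between day 1.5 and day 0 (0 of 41; 0.0% of 17585 genes), between day 3.5 and day 0 (0 of 41; 0.0%) or between day 3.5 and day 1.5 (0 of 41; 0.0%). Since no gene of any kind passed, the lack of calls does not show that members were unchanged. DESeq2 called 0, 1 (E2f8, higher; 1.17% of all genes) and 0 members and limma, which kept 21 members, called 0 in each. An unadjusted p under 0.05 was seen for 5 (12.2%; 8.09% of all genes), 3 (7.32%; 8.76%) and 2 members (4.88%; 4.54%), shares close to those of all genes. The medians over members were -0.02, 0.17 and 0.10, beside -0.05, -0.06 and -0.00 over all genes. With 1 library left out they ranged from -0.12 to 0.27, from 0.15 to 0.40 and from -0.14 to 0.28, so the first and the last changed sign. With day 0 mice of the same sort day only, the medians against day 0 were 0.20 and 0.49.

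Mcm4 had the smallest p on day 1.5: it was at 10.4, 6.06, 2.27 and 12.2 CPM on day 0 and at 40.9, 71.9 and 11.0 CPM on day 1.5 (2.36 ± 0.76, adjusted p = 0.501). Its lowest day 1.5 library lay within the day 0 range. Mcm6 was at 12.7, 0.0939, 0.231 and 1.96 CPM and then at 34.5, 87.3 and 11.0 CPM, with reads in 11 and 40 cells (3.53 ± 1.52, adjusted p = 0.597). Mcm5, at 10.6, 0.198, 1.88 and 17.1 CPM and then 41.5, 45.8 and 9.77 CPM, had a fold change of 2.06 ± 1.21 (adjusted p = 0.703). For each of the 3 helicase genes, replicate 3 of day 1.5 lay within the day 0 range.

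Tk1 in ECs was at 32.4, 20.2, 37.3 and 53.9 CPM on day 0 and, by day 1.5, at 3.08, 5.53 and 19.4 CPM (-2.03 ± 0.78, adjusted p = 0.559). The libraries did not overlap (2.78% of all genes were wholly lower, 4.7% wholly higher and 7.48% either), yet on the deposited log scale the value was 0.16, and without day 1.5 replicate 3 the fold change was -3.10. On day 3.5 Tk1 was at 21.1, 14.6 and 70.8 CPM, which spans the day 0 values (1.94 ± 0.80 against day 1.5, adjusted p = 1, with 3.03 without day 1.5 replicate 3 and 0.95 without day 3.5 replicate 3). On day 0, 31.4% of its reads came from 1 cell.

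E2f8 and Rrm2 were close to absent in ECs of uninjected mice. E2f8 was at 0.0397, 0.0417, 0 and 0.0608 CPM on day 0, at 0.1, 0.0818 and 0.784 CPM on day 1.5 and at 2.04, 0.196 and 0.347 CPM on day 3.5 (3.03 ± 1.27, adjusted p = 0.589, and 4.47 ± 1.34, adjusted p = 0.424, against day 0). No day 0 library reached the lowest later one. This rests on 12 reads in 5 cells on day 0, and on 24 and 21 cells later, with 72.2% of the reads of each later day in 1 cell. The fold change was 1.30 without day 1.5 replicate 3, and for day 3.5 it was 2.83 without day 3.5 replicate 1. Rrm2 had reads in 3, 10 and 13 cells, with 81.8%, 79.8% and 72.5% of them in 1 cell, and its libraries overlapped (3.90 ± 1.74, adjusted p = 0.613, and 4.10 ± 1.75, adjusted p = 0.55). The day 3.5 value of Rrm2 was 1.13 without day 3.5 replicate 3 and 6.09 without day 0 replicate 4.

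Ccne2 and Dtl also had all 3 day 3.5 libraries above day 0 (with E2f8, 3 members, 7.32%; 4.87% of all genes, or 7.87% in either direction). Ccne2 was at 0, 0.0209, 1.13 and 0.656 CPM on day 0, at 0.548, 0.351 and 3.30 CPM on day 1.5 and at 2.96, 3.98 and 3.45 CPM on day 3.5 (2.87 ± 1.56 for day 3.5 against day 0, adjusted p = 0.64). Dtl was at 1.48, 1.09, 2.37 and 1.53 CPM and at 3.52, 3.14 and 2.76 CPM (0.90 ± 0.71, adjusted p = 0.773). Neither passed. Usp1, which removes ubiquitin from PCNA, was at 54.6, 37.8, 19.6 and 54.1 CPM in the uninjected mice and at 22.3, 16.4 and 7.09 CPM on day 3.5 (-1.52 ± 0.61, adjusted p = 0.512), with overlap.

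Between day 1.5 and day 3.5, Pola1 values were 25.02, 37.8 and 33.9 CPM and then 81.3, 39.3 and 73.9 CPM (1.00 ± 0.42, adjusted p = 1), and Dscc1, of an alternative clamp loader, was at 0.378, 0.514 and 0.483 CPM and then at 1.40, 2.44 and 1.42 CPM (1.93 ± 1.04, adjusted p = 1). Both lay wholly higher, as did Rfc2, and Cdc45 lay wholly lower (3 members, 7.32%, beside 4.7% of all genes, and 1, 2.44%, beside 4.99%, or 9.69% in either direction). Pcna was at 97.4, 84.5, 72.3 and 54.0 CPM on day 0, at 52.1, 52.8 and 65.6 CPM on day 1.5 and at 44.4, 80.4 and 107 CPM on day 3.5. Its fold changes of -0.50 ± 0.35 (adjusted p = 0.753) and -0.06 ± 0.34 (adjusted p = 0.98) against day 0 were within that spread.

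Mcm2 was at 34.2, 12.8, 11.5 and 13.6 CPM on day 0, 18.8, 48.5 and 15.8 on day 1.5 and 9.75, 13.1 and 26.1 on day 3.5. Tyms was at 10.9, 25.02, 18.7 and 7.57 CPM, then at 40.8, 3.59 and 30.5, and then at 18.6, 17.4 and 25.6. The days overlapped in both genes. Against day 0, the fold changes were 0.57 ± 0.62 and -0.21 ± 0.63 for Mcm2 and 0.63 ± 0.73 and 0.34 ± 0.73 for Tyms, with adjusted p of 0.855, 0.956, 0.862 and 0.936.

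**Figure D5:**
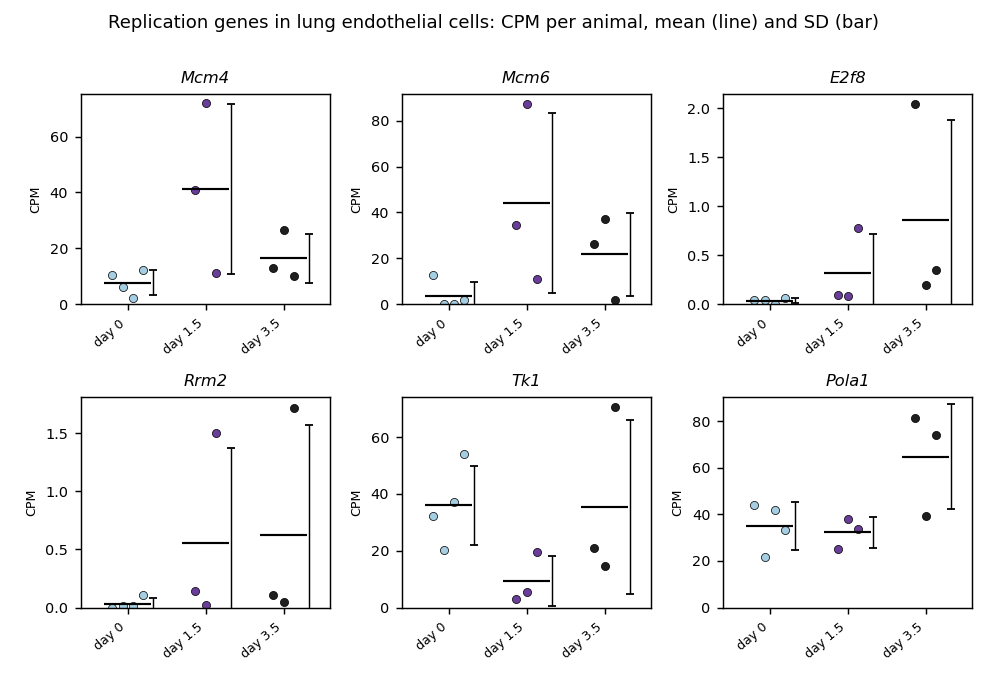
Level of 6 replication genes in lung ECs, in CPM on linear axes from 0 that differ between genes, with 1 point per mouse, the mean as a line and the SD as a bar beside it. Mcm4, Mcm6, E2f8 and Rrm2 had their highest value after day 0, Tk1 was lowest on day 1.5 and Pola1 was highest on day 3.5, with wide spread between mice and no call.

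Outside the list, 0 of 53 further replication genes, 0 of 9 E2F family genes and 0 of 10 genes of G2 and mitosis passed in any EC comparison. Of the latter, 9 of 10 were above 0 on day 1.5 and 10 of 10 on day 3.5 against day 0, with median fold changes of 3.57 and 4.66 beside -0.05 and -0.06 over all genes. Their summed level was 1.65 to 12.0 CPM on day 0, 11.5 to 109.5 CPM on day 1.5 and 27.6 to 169 CPM on day 3.5. The smallest p among them belonged to Ccna2, cyclin A2, at 0.0470 ± 0.0373 CPM in the uninjected mice and at 10.7 ± 8.65 CPM on day 1.5 (7.75 ± 1.30, adjusted p = 0.301). Cdt1, the licensing factor, was at 0.200 ± 0.337 CPM in the uninjected mice and at 15.6 ± 8.70 CPM on day 3.5 (6.17 ± 1.54, adjusted p = 0.401).

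Levels of ECs and in vivo TCs were set side by side without a test, since EC cDNA was amplified in more cycles. For 20 members all 13 TC libraries lay above all 10 EC libraries, for 19 the ranges overlapped, and for 2 all EC libraries lay above (48.8% and 4.88% of members, beside 7.99% and 16.3% of the 16091 genes tested in both). These were Rad51ap1, a homologous recombination factor, at 17.1 to 107 CPM in ECs and 8.19 to 16.7 CPM in TCs, and Ubr7, a ubiquitin ligase, at 21.8 to 69.4 and 8.10 to 19.5 CPM. The EC median was also above the TC median for Wdr76, Casp8ap2 and Pold3. The lung epithelial markers reached up to 118 CPM in EC libraries and the immune markers up to 49.9 CPM, and their part in these levels was not tested.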

How the data were processed

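Single TCs and ECs were sequenced as plate libraries, 1 cell each, without molecular identifiers. The authors deposited estimated counts per gene and cell, made with Salmon 0.7.2 on GRCm38 per the submitters' processing notes, and log10 values of the cells they kept, scaled by a housekeeping panel. The annotation release and counting strand are not given in the sources used here. A further table of a subset of ECs was not used. Cell annotation gave the mouse and gate. The stated minimums were 1000 (ECs) and 2500 genes (TCs) and at most 5% mitochondrial reads, but as computed here 1427 of the 1566 kept TCs and 2393 of the 2479 kept ECs met them (49 of 69 in extravascular replicate 3, the lowest share).

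Counts of the cells the authors kept were summed per mouse or pool and rounded. TCs without the cultured pool (13 libraries, 19249 genes) and ECs (10 libraries, 17585 genes) were fitted separately in edgeR 4.0.16 (R 4.3.3) with filtering of low counts, TMM scaling and the quasi-likelihood test, with Benjamini-Hochberg adjustment and a threshold of 0.05. DESeq2 1.42.0 and limma 3.58.1 on mean log10 values per library were alternatives. Cells were thinned to 100000 reads for shares (Python 3.11.15), and shallower cells were left out. Read totals were 31.9 to 163 M per TC library and 75.6 to 129.5 M per EC library, while the tests rest on the spread between libraries. The fits were tested on simulated data.

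The members and lists were chosen with earlier results of these data known. Values in full were given for the 3 members with the smallest p in each comparison, members called against the majority, and Pcna, Mcm2, Mcm5, Rrm2, Tyms, Ccne2 and E2f8, with counts and the gene of smallest p for other lists. Other members named were chosen after their values were seen. Same-numbered intravascular and extravascular libraries came from the same mice, per the deposited annotation, with correlations of their deviations from the group means of 0.04, -0.00007, 0.02 and -0.01.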

Additional observations from a re-analysis of the deposited data

Results flagged for a closer look

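Within groups of 4 libraries, the highest or lowest library was tested for standing apart from the rest by Dixon's ratio (limit 0.829). Of 164 groups tested, 15 had such a library. A rate of 1 in 20 would give 8.2, but that assumes independent and normally spread values. The genes share libraries, and reads of a gene in ECs came from few cells, so 8.2 is only a rough guide. There were 7 among day 0 ECs, 6 among latent TCs and 1 each among extravascular and intravascular TCs.

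In day 0 ECs, replicate 1 stood above the others for Mcm2 (34.2 CPM, nearest 13.6), Mcm6 (12.7, nearest 1.96) and Cdc45 (44.0, nearest 15.5). Replicate 2 stood above for Cdc6 (0.835, nearest 0.0365) and below for Atad2 (14.1, nearest 60.4). Replicate 4 stood above for Rrm2 (0.109, nearest 0.0122) and for Ung (1.56, nearest 0.474).

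Among latent TCs, replicate 1 stood below the others for Mcm5 (68.3 CPM, nearest 85.8), Cdc6 (5.83, nearest 11.6) and Ung (5.68, nearest 12.6), and held the most immune marker reads, whose part in this was not tested. Replicate 3 stood above for Prim1 (77.0, nearest 64.6) and Tipin (117, nearest 100.3), and replicate 4 below for Atad2 (102, nearest 119.6). Tipin in extravascular replicate 2 was low (96.7, nearest 124). Rad51ap1 in intravascular replicate 2 was high (16.7, nearest 12.1).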

How the results depend on the processing

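Of the alternatives to values of whole comparisons, 160 kept their direction and size and 41 moved; for single genes 339 stayed, 50 lost and 9 gained the call, and 3 reversed. Between extravascular and intravascular TCs, DESeq2 called 5 members (2.71% of all genes higher, 2.67% lower) and limma 4 (1.67% and 14.7%), with median -0.14 and Pcna at -0.15, and leaving out 1 library gave 0 to 2. The numbers pair these libraries by mouse, and with the replicate block 0 members passed (median 0.17). Between latent and extravascular TCs, DESeq2 called 16 (15 lower, 36.6%, beside 5.72% of all genes, and 1 higher, beside 5.28%) and limma 16 (13 lower, 31.7%, beside 8.23%, and 3 higher, 7.32%, beside 33.8%), with Tk1 at -0.038, and leaving out 1 library gave 6 to 9. With latent replicates 2 and 3 only, chosen after seeing the data, 4 passed. Between the proliferative pool and intravascular TCs the limma median was 0.55, and leaving out 1 library gave 4 to 10 calls. Between latent TCs and the pool, DESeq2 called 5 and limma 9 (median -1.09), all lower, beside 0.233% and 0.691% of all genes. In ECs, limma put Tk1 at 0.16 on day 1.5. For day 3.5 against day 0, DESeq2 called 1, the median ranged from 0.15 to 0.40 with 1 library left out (0.40 without day 0 replicate 1), and it was 0.49 with day 0 mice of the same sort day, also chosen after seeing the data, as was a fit with 2 groups only, which left 0 calls between extravascular and intravascular TCs. Except where fewer libraries were used, the cause was not tested.

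With a count of at least 10, the median shares of cells were 2.98%, 3.08% and 3.43% in ECs of day 0, 1.5 and 3.5 and 26.3%, 36.9%, 37.6%, 35.3% and 53.2% in cultured, intravascular, extravascular, latent and proliferative TCs. At 100000 reads they were 6.08%, 7.13%, 7.75%, 50.8%, 52.6%, 49.7%, 49.8% and 64.1%, in that order, and members per cell were 4, 4 and 5 in ECs and 22, 24, 22, 22 and 26 in TCs. Fits with 4 proliferative replicates, and a replicate block with them, were not run because the cells could not be matched to those replicates. The single pool and the few EC reads of Rrm2 and E2f8 limit what these data can resolve.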

Other observations

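Over the 13 in vivo TC libraries, the genes outside the list whose level followed the summed level of the 41 members most closely, among 19208 genes and on the log2(CPM + 1) scale, were Ppm1m (Pearson's r = 0.93), Nup93 (0.93), Gm48455 (0.91), Gsr (0.89) and Rcn1 (0.89). The highest sum, in the proliferative pool, is 1 of the 13 points, libraries share gates and lanes, and the values are given as a description.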
